A study of Macaca mulatta with 4 samples.

Results

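Forkhead genes encode transcription factors that share the forkhead (winged helix) DNA binding domain, and their letters, FOXA to FOXS, name subfamilies. They were followed here in rhesus monkey (Macaca mulatta) embryonic stem cells, or ESCs, and in neural progenitor cells, or NPCs. Members were chosen by name alone, as the rows of the expression table whose symbol starts with FOX, a letter from A to S and a digit. This gave 43 of 23697 rows. Of these, 42 were forkhead genes, from 19 subfamilies, and the remaining row was FOXL2NB, a neighbour of FOXL2 that carries the FOX prefix by position. The rule leaves out the FOXRED genes, which encode oxidoreductases.

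RNA was compared between ESCs with 2 chromosome sets (diploid), ESCs with a single set (haploid) and diploid NPCs, 1 library for each. The labels give the tissue as embryo, at stage E3.5 for both diploid groups and E2.5 for the haploid ESCs, so that ploidy and stage cannot be told apart. The labels name no genetic change or treatment of these cells, and they do not give the share of cells in the haploid library that still held 1 chromosome set. The series has 4 samples, and its haploid NPC sample was not analysed here.

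Levels are FPKM, fragments scaled to transcript length and to library size, so genes within a library can be set against each other. Between libraries the scale differs. All rows summed to 568733.7 FPKM in the diploid stem cells, 492323.8 in the haploid and 600215.3 in NPCs. Equal FPKM in different libraries is therefore not an equal share of the summed level. Where 3 levels follow each other without labels, they are those of diploid ESCs, haploid ESCs and NPCs, in that order. Ratios are log2 ratios of FPKM plus 1, so that differences between low values appear smaller than they are. Genes were read for ratios where their mean over the 3 libraries was at least 1 FPKM, and called where the ratio was at least 4-fold (2 on the log2 scale). With 1 library per group there is no replicate, so no test was made and every value describes these libraries. The commonest ratio among low values put the estimated depth of the haploid ESC library at 95.1% of that of the diploid ESC library. For the NPC library it was 78.5%, so by this estimate a single read weighs most in NPCs. Marker genes followed the labels: the 8 stem cell markers summed to 3149 FPKM in the diploid stem cells, 2209 in the haploid and 12.5 in NPCs, and the 8 NPC markers to 625, 646 and 2004 FPKM.

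As background, forkhead factors act at many steps of early development. FOXA proteins are pioneer factors of the endoderm that can bind compacted chromatin. FOXH1 brings SMAD proteins to the targets of Nodal signalling. FOXD3 is needed for the pluripotent epiblast of the mouse embryo and later for the neural crest. FOXJ1 switches on the genes of motile cilia, FOXM1 drives genes of the G2 and M phases, FOXO proteins are held out of the nucleus by insulin and AKT signalling, and FOXP proteins act in the developing brain, lung and immune system.

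Diploid ESCs held the broadest set of forkhead transcripts. At 1 FPKM or more stood 21 of the 42 genes in the diploid stem cells, 17 in the haploid and 17 in NPCs, or 50.0%, 40.5% and 40.5%, against 57.9%, 55.5% and 59.2% of all genes in the table. At 10 FPKM or more there were 10 genes in the diploid stem cells, 9 in the haploid and 4 in NPCs. The share of all genes at that level was not counted, so these counts have no background to be read against. Without rescaling of the libraries, the 42 genes summed to 292 FPKM in the diploid stem cells, 247 in the haploid and 202 in NPCs. The 3 highest genes made up 47.4% of that sum in diploid ESCs, where they were FOXD3, FOXM1 and FOXA2, and 46.8% in haploid ESCs, where they were FOXM1, FOXP4 and FOXH1. In NPCs the share was 61.4%, and the genes were FOXM1, FOXP4 and FOXJ1.

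**Figure D1:**
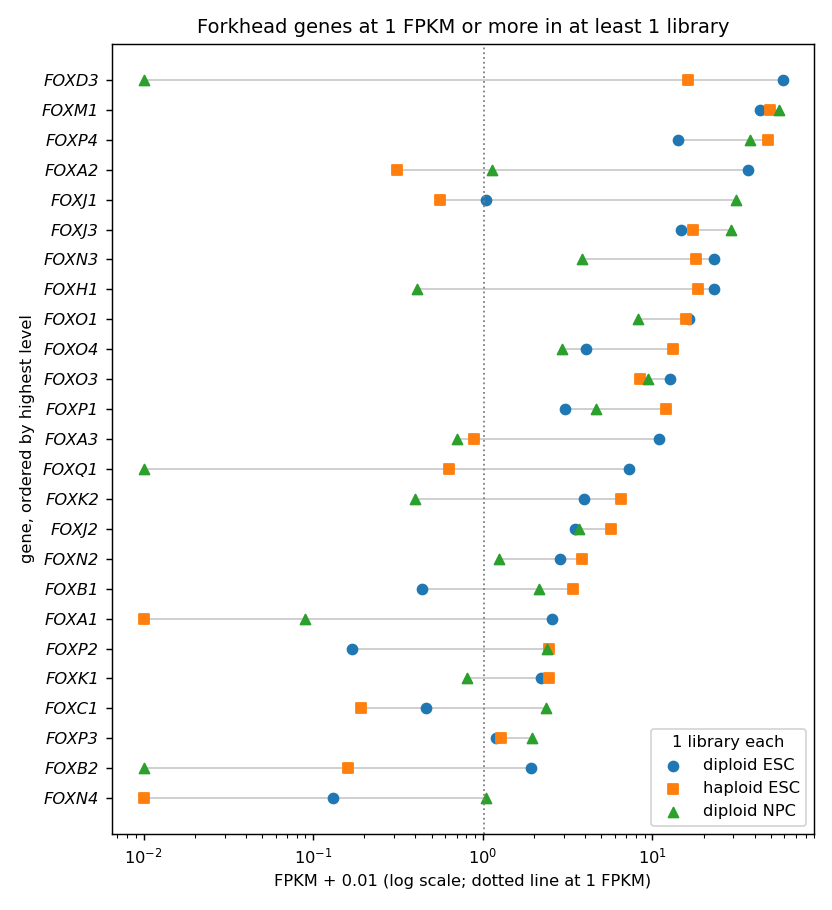
Level of each of the 25 forkhead genes that reached 1 FPKM in at least 1 library, as FPKM plus 0.01 on a log scale, with 1 symbol per library (circles, diploid ESC; squares, haploid ESC; triangles, diploid NPC) and genes ordered by their highest level. FOXD3, FOXA2, FOXJ1, FOXH1 and FOXQ1 span wide ranges, while the 3 symbols of FOXM1 lie close together between 43.2 and 55.5 FPKM.

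The subfamilies that made up the sum differed between the libraries. FOXA and FOXD genes together with FOXH1 held 17.2%, 20.2% and 7.9% of the summed level in diploid ESCs. In haploid ESCs these shares were 0.5%, 6.7% and 7.5%, and in NPCs 0.9%, 0.1% and 0.2%. The FOXP genes held 6.3% in the diploid stem cells, 25.8% in the haploid and 23.0% in NPCs. FOXJ genes held 6.6%, 9.6% and 31.6%. The FOXO share was similar in the 3 libraries, at 11.6%, 15.3% and 10.5%.

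**Figure D2:**
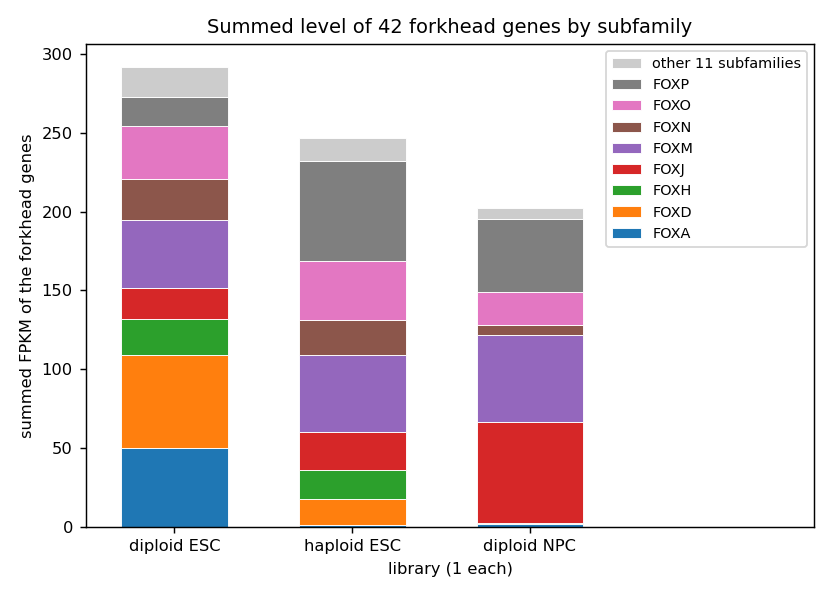
Summed FPKM of the 42 forkhead genes in each of the 3 libraries, stacked by subfamily, with 11 subfamilies of low level pooled as other. The FOXA and FOXD blocks are large in diploid ESCs, at 50.1 and 58.9 FPKM, and the FOXJ block is largest in NPCs, at 63.9 FPKM.

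The diploid NPC library was first set against the diploid ESC library. Of the 42 genes, 21 had a mean of at least 1 FPKM. FOXA2, FOXA3, FOXD3, FOXH1, FOXN3 and FOXQ1 were at least 4-fold lower in NPCs, which is 6 of 21 or 28.6%, against 6.11% of the 14474 genes read. FOXJ1 was at least 4-fold higher, which is 1 of 21 or 4.8%, against 8.28% of all genes read. FOXA2, FOXA3 and FOXQ1 reached the mean filter only through their diploid ESC level, and FOXJ1 only through its NPC level. These shares therefore depend on the filter. Without a filter, 6 of 43 rows were lower, against 3.73% of all genes, and 1 was higher, against 5.06%. No row with a mean below 1 FPKM can reach 4-fold on FPKM plus 1. Dropping the filter therefore only adds rows that could not be called, and it is no check on these shares. The median ratio of the 21 genes was -0.39, and that of all genes read 0.01. When the haploid ESCs served as the reference, FOXD3, FOXH1 and FOXK2 were at least 4-fold lower in NPCs, 14.3% of the 21 against 7.9% of all genes. FOXJ1 was again the single member at least 4-fold higher, with 11.6% of all genes. FOXA2, FOXA3, FOXQ1 and FOXN3 were then inside 4-fold, at 0.71, -0.15, -0.70 and -1.99, so they did not separate NPCs from both ESC libraries at that threshold.

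The haploid and diploid ESC libraries differ in ploidy and in labelled stage, so their comparison addresses no single factor. FOXA2, FOXA3 and FOXQ1 passed 4-fold downward in the haploid library, 14.3% of the 21 genes against 2.53% of all genes read. All 3 reached the mean filter only through their diploid ESC level, so this share depends on the filter. Without a filter, 3 of 43 rows passed downward, against 1.54% of all genes. The rows added in this way could not reach 4-fold, as said above, so the 3 calls were fixed and this is no check on them. None of the 21 genes was at least 4-fold higher, against 1.04% of all genes. Each library was also rescaled to a sum of 1000000, which moved the median of all genes from 0.02 to 0.21. FOXB1, FOXP1 and FOXP2 then passed upward, and FOXA2, FOXA3 and FOXQ1 were still lower. The median ratio of the 21 genes was 0.11, and 12 of them lay above 0 and 9 below. Both this comparison and that of diploid NPCs use the same diploid ESC library, so a gene's ratios in them are not independent. A gene high in that library alone is lower in both.

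**Figure D3:**
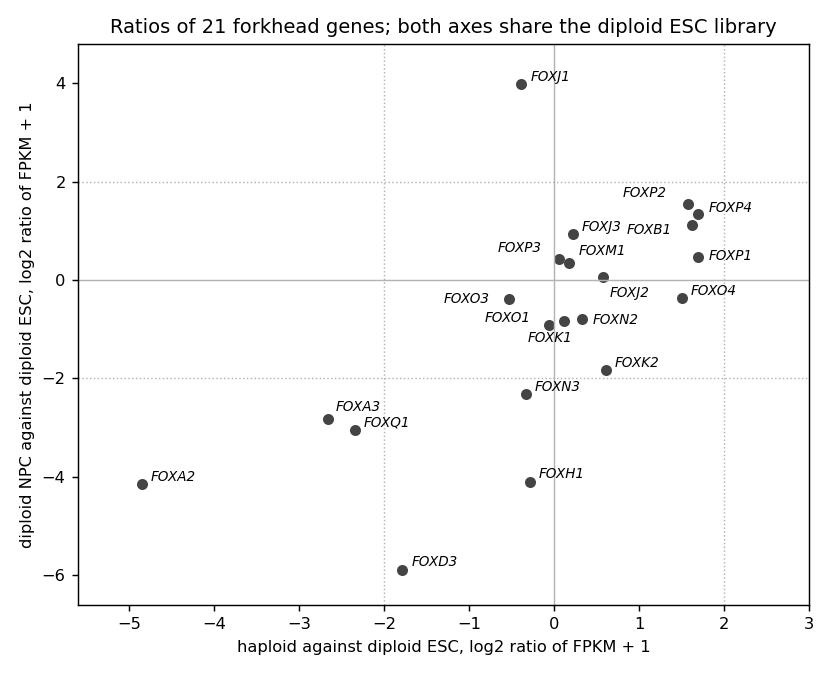
Ratio of each of the 21 forkhead genes whose mean reached 1 FPKM, in haploid against diploid ESCs (horizontal axis) and in diploid NPCs against diploid ESCs (vertical axis), as log2 ratios of FPKM plus 1, with dotted lines at 4-fold. FOXA2, FOXA3 and FOXQ1 lie past 4-fold on both axes, FOXH1, FOXN3 and FOXD3 on the vertical axis alone, and FOXJ1 is the one point above 2.

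Among the factors of the early embryo, FOXD3 (NCBI gene 696085) stood at 58.4 FPKM in the diploid and 16.2 in the haploid stem cells and was listed at 0 in NPCs. It was the highest forkhead gene of diploid ESCs and had 5 forkhead genes above it in haploid ESCs, and its level differed between the ESC libraries by a log2 ratio of -1.79. A non-coding row of the table whose deposited description matches the FOXD3 protein, LOC106998992, had the same order, at 4.78, 1.43 and 0.19 FPKM. FOXH1 (NCBI gene 714987) stood at 23.0 FPKM in the diploid stem cells, 18.6 in the haploid and 0.4 in NPCs, a ratio of -4.10 in NPCs against diploid ESCs. Unlike FOXD3, it was close between the ESC libraries, with a ratio of -0.29.

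FOXH1 works inside the Nodal pathway, and the other genes of that pathway were read as a list. Of 16 genes 13 were found, and 5 of the 13 were at least 4-fold lower in NPCs than in diploid ESCs and none higher, with a median of -1.34. NODAL, the ligand, stood at 59.5 FPKM in the diploid and 15.0 in the haploid stem cells and was listed at 0 in NPCs. TDGF1, its coreceptor, was at 117, 91.0 and 1.06 FPKM. GDF3, a related ligand, stood at 3.99 and 39.1 FPKM in the ESC libraries and at 0 in NPCs. Of the SMAD partners of FOXH1, SMAD2 stood at 25.7, 30.2 and 10.95 FPKM and SMAD4 at 11.05, 22.1 and 2.33 FPKM, so both were lowest in NPCs but still present. Between haploid and diploid ESCs the list had 1 gene at least 4-fold higher, GDF3, none lower and a median of 0.57.

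All 3 FOXA genes were highest in diploid ESCs and low in the other 2 libraries. FOXA2 (NCBI gene 701771), which is needed for the endoderm, the node and the floor plate, was at 36.7 FPKM in the diploid stem cells, 0.3 in the haploid and 1.12 in NPCs. Its ratio was -4.86 in haploid ESCs and -4.15 in NPCs, the lowest haploid ratio of the family. FOXA3, a liver and gut factor, was at 10.9, 0.88 and 0.69 FPKM, with ratios of -2.66 and -2.81. FOXA1, which overlaps with FOXA2 in function, had a mean below 1 FPKM, at 2.53 FPKM in diploid ESCs, listed at 0 in haploid ESCs and at 0.08 FPKM in NPCs. In bulk RNA, fewer cells of a type and less RNA per cell cannot be told apart. Against haploid ESCs, NPCs were not lower in FOXA2, with a ratio of 0.71.

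Endoderm markers, like the FOXA genes, were highest in diploid ESCs as a sum. The 8 endoderm markers summed to 928 FPKM in the diploid stem cells, 55.0 in the haploid and 30.3 in NPCs, and 7, 4 and 2 of them stood at 1 FPKM or more. SOX17 was listed at 0 in NPCs and TTR in both ESC libraries, and CER1 made up most of the diploid sum; the part of these markers in the FOXA result was not tested. HHEX, a homeobox factor, at 37.2, 0.36 and 11.3 FPKM, and the chemokine receptor CXCR4, at 112, 7.68 and 17.9 FPKM, were higher in NPCs than in haploid ESCs and made up most of the NPC sum. A longer list of 16 genes that act with FOXA factors in the definitive endoderm had 13 genes read. It holds all 8 endoderm markers summed above, so it is not a separate reading of them. In NPCs 9 of the 13 genes passed 4-fold downward and none upward (median ratio -4.19), against 6.11% of all genes read downward. In haploid ESCs 10 did and none upward (median ratio -2.58), against 2.53% downward. Some of the genes called, SOX17 and KIT among them, reached the mean filter only through their diploid ESC level, so these counts depend on the filter. Over all 16 genes, those with low values included, the medians were -3.17 and -2.23. CER1, a secreted antagonist of Nodal, stood at 663 FPKM in the diploid stem cells, 37.6 in the haploid and 0.26 in NPCs. GSC, a homeobox gene of the organizer, was at 68.6, 4.8 and 0.11 FPKM. The zinc finger factor GATA4 was at 35.8, 5.16 and 0.02 FPKM, and SOX17 at 60.4 and 0.1 FPKM in the ESC libraries and at 0 in NPCs. MIXL1, also on that list, differed least in NPCs against diploid ESCs among the 13 genes read, at 24.3, 11.6 and 11.4 FPKM.

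FOXA2 also marks the floor plate of the neural tube, and a list for floor plate and ventral midbrain gave little to read, with 4 of 11 genes above the mean of 1 FPKM. SHH, the ventral morphogen that FOXA2 works with, was low in all 3 libraries, at 1.57 FPKM in the diploid stem cells, 0.01 in the haploid and 0.78 in NPCs. WNT5A was the gene at least 4-fold higher in NPCs, at 1.95, 7.12 and 42.2 FPKM. SLIT2, an axon guidance ligand, was the gene at least 4-fold higher in haploid ESCs, at 1.51, 13.6 and 3.43 FPKM. SPON1 stood at 0.55, 0.16 and 4.63 FPKM and NTN1 at 3.4, 2.49 and 0.43 FPKM. None of the 4 was at least 4-fold lower in NPCs or in haploid ESCs.

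FOXQ1, known in the mouse for its part in hair shaft formation, was, like the FOXA genes, highest in diploid ESCs. It stood at 7.24 FPKM in the diploid and 0.62 in the haploid stem cells and was listed at 0 in NPCs, and its ratio between the ESC libraries was -2.35. In the RefSeq gene order of the T2T-MMU8v2.0 assembly, FOXC1, FOXF2 and FOXQ1 follow each other, yet their levels did not move alike. FOXF2, a factor of gut mesenchyme, was at 0.31, 0.41 and 0.06 FPKM, and FOXC1, a factor of mesoderm, eye and meninges, at 0.45, 0.18 and 2.36 FPKM. The table gives FOXC1 under another gene ID than that assembly, whose FOXC1 ID stood at 0.05 FPKM in the diploid stem cells, 0 in the haploid and 0.17 FPKM in NPCs.

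FOXN3, FOXN2, FOXK1 and FOXK2 were also lowest in NPCs. FOXN3, a repressor linked to cell cycle checkpoints, was at 23.1 FPKM in the diploid stem cells, 18.1 in the haploid and 3.82 in NPCs, a ratio of -2.32 against diploid ESCs and -1.99 against haploid ESCs. Its relative FOXN2 was at 2.85, 3.81 and 1.24 FPKM. FOXK1 and FOXK2 repress genes of autophagy and act in growth factor and mTOR signalling. FOXK1 stood at 2.19, 2.45 and 0.8 FPKM. The row named FOXK2 was at 3.95, 6.55 and 0.39 FPKM, with ratios of -1.83 against diploid and -2.44 against haploid ESCs. FOXK2 is uncertain, because the RefSeq gene table gives that name to the gene ID of another row, LOC719599, which stood at 23.8, 28.9 and 10.1 FPKM, with ratios of -1.17 and -1.44. Both rows were lowest in NPCs, and the second was not past 4-fold in either comparison. Against diploid ESCs the row named FOXK2 passed 4-fold with a pseudocount of 0.1, at -3.05, and after rescaling to a sum of 1000000, at -2.27.

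FOXJ1 (NCBI gene 706275) was far higher in NPCs than in the ESC libraries. It stood at 1.03 FPKM in the diploid stem cells, 0.55 in the haploid and 31.05 in NPCs, with ratios of 3.98 and 4.37, the highest of the family in both NPC comparisons. Only FOXM1 and FOXP4 stood higher among forkhead genes in NPCs. The other FOXJ genes were present throughout: FOXJ3, studied in mouse muscle and spermatogenesis, was at 14.8, 17.4 and 29.1 FPKM, and FOXJ2 at 3.5, 5.69 and 3.67 FPKM.

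Genes of motile cilia were read as a list for FOXJ1. The list holds regulators too, namely RFX2, RFX3, MCIDAS and GMNC, so it is not made of FOXJ1 targets alone. The listed genes were low as a group even in NPCs, though more of them were detected there. All 21 genes of the list were found, 12 of them at 1 FPKM or more in NPCs against 6 in diploid and 5 in haploid ESCs. They summed to 62.0 FPKM in NPCs, 12.5 FPKM in the diploid and 12.7 in the haploid stem cells. Over all 21, the median ratio in NPCs against diploid ESCs was 0.92, with 17 above 0 and 4 below. The 4 below were RFX3, DNAH11, MCIDAS and GMNC. Of the 21, 10 had a mean of at least 1 FPKM, several of them through their NPC level alone, and their median of 1.66 is therefore no measure of the list. The one gene of the 10 at least 4-fold higher in NPCs was ZMYND10, which helps to assemble dynein arms, at 0.55 FPKM in the diploid stem cells, 0.16 in the haploid and 11.5 in NPCs. TPPP3 was at 2, 1.57 and 10.0 FPKM. The axonemal genes TEKT1 and DNAI1 were lower: TEKT1 stood at 0.18, 0 and 3.65 FPKM, and DNAI1, an intermediate chain of the outer dynein arm, at 0.07, 0.07 and 3.15 FPKM. The dynein heavy chains DNAH5 and DNAH9 stayed at 0.37 and 0.3 FPKM in NPCs. MCIDAS, which starts multiciliated cell formation upstream of FOXJ1, was at 0.03 FPKM in NPCs, and its relative GMNC was listed at 0 there. Between haploid and diploid ESCs none of the 10 was past 4-fold, and the median of all 21 was -0.04.

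FOXM1 was the most even of the abundant members. It stood at 43.2 FPKM in the diploid stem cells, 49.0 in the haploid and 55.5 in NPCs, with ratios of 0.18 in haploid ESCs and 0.35 in NPCs. It was the highest forkhead gene in haploid ESCs and in NPCs and the second highest in diploid ESCs. All 19 genes of a list of FOXM1 targets of the G2 and M phases were found and had a mean of at least 1 FPKM. None was past 4-fold in either direction in NPCs or in haploid ESCs against diploid ESCs, and the medians were -0.19 and 0.35. Against haploid ESCs, 1 of the 19 was at least 4-fold lower in NPCs. The kinesin KIF20A, needed for cytokinesis, had the largest ratio, at 29.2 FPKM in the diploid stem cells, 49.1 in the haploid and 8.75 in NPCs. BUB1, a kinase of the spindle checkpoint, was at 49.9, 50.8 and 16.5 FPKM, and the kinase PLK1 at 95.0, 98.5 and 44.9 FPKM. CDC25B, a phosphatase that activates CDK1, was highest in NPCs, at 16.3, 31.3 and 41.2 FPKM, and cyclin B1 (CCNB1) was at 107, 121 and 72.6 FPKM. The target genes thus lay on both sides of 0 in NPCs, with 9 above and 10 below.

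The FOXO genes were present in all 3 libraries, except FOXO6. FOXO1 was at 16.4 FPKM in the diploid stem cells, 15.7 in the haploid and 8.19 in NPCs, and FOXO3 at 12.6, 8.39 and 9.38 FPKM. Their ratios against diploid ESCs lay between -0.92 and -0.06, inside 4-fold. FOXO4 differed from them: it stood at 4.05, 13.3 and 2.91 FPKM, with a ratio of 1.5 in haploid against diploid ESCs and -1.87 in NPCs against haploid ESCs. FOXO6, best known from the brain, was at 0.78, 0.31 and 0.71 FPKM.

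Regulators of FOXO proteins in the PI3K and AKT pathway were all measured, 19 of 19. Only 1 was past 4-fold in each comparison with diploid ESCs, and it was SGK1, a kinase that phosphorylates FOXO proteins as AKT does, at 75.0 FPKM in the diploid stem cells, 14.7 in the haploid and 0.43 in NPCs. AKT1 itself was at 49.2, 63.6 and 67.1 FPKM. IGF1R, a receptor at the head of the pathway, was at 14.1, 30.7 and 2.85 FPKM, the catalytic subunit PIK3CA at 8.45, 10.7 and 1.58 FPKM, and the deacetylase SIRT1 at 19.7, 22.2 and 5.65 FPKM. The list median was -0.60 in NPCs and 0.31 in haploid ESCs. Genes that FOXO proteins can activate went both ways. Of 17 targets 15 were read, and in NPCs 2 passed 4-fold upward and 2 downward (median ratio -0.33). The higher ones were the cell cycle inhibitor CDKN1A, at 6.18 FPKM in the diploid stem cells, 2.26 in the haploid and 36.6 in NPCs, and TXNIP, at 1.63, 1.09 and 9.67 FPKM. The lower ones were the pseudokinase TRIB1, at 26.7, 9.16 and 1.79 FPKM, and BNIP3, a mitophagy receptor, at 144, 81.4 and 31.4 FPKM. CDKN1B, a classic FOXO target, was nearly level, at 17.4, 15.4 and 15.3 FPKM. In haploid ESCs no target was past 4-fold, and the median was -0.33.

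**Figure D4:**
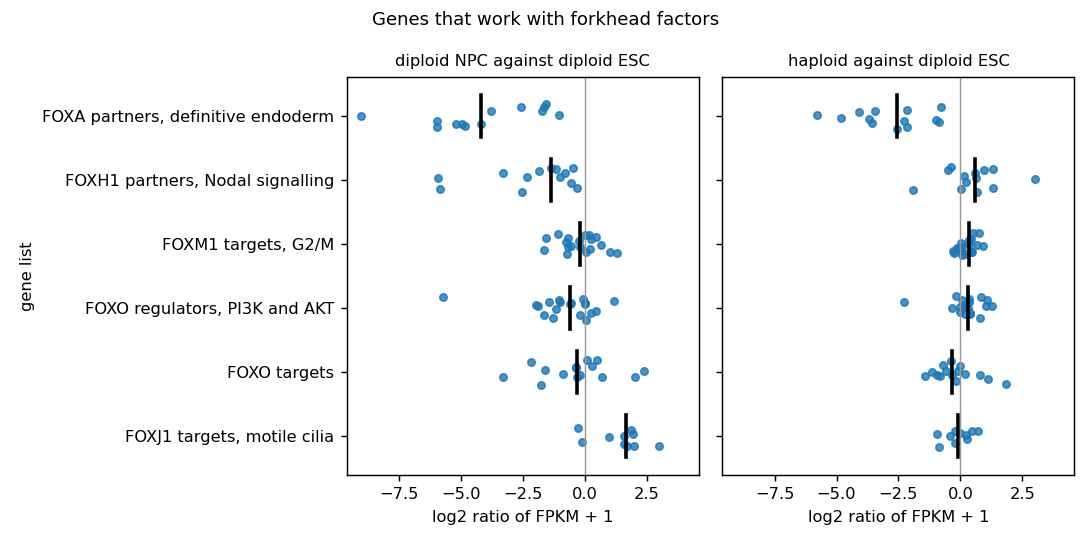
Log2 ratio of FPKM plus 1 of each gene with a mean of at least 1 FPKM in 6 lists of genes that work with forkhead factors, in diploid NPCs (left) and haploid ESCs (right) against diploid ESCs; each point is a gene, placed at random height within its list, and bars mark the medians. The endoderm list lies below 0 in both panels, the 10 motile cilia genes above the filter have a median of 1.66 on the left and -0.11 on the right, and the FOXM1 targets lie around 0.

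The FOXP genes were lowest in diploid ESCs, with FOXP3 nearly level between the ESC libraries. FOXP4, the most abundant of them, was at 14.1 FPKM in the diploid stem cells, 47.8 in the haploid and 37.5 in NPCs, with ratios of 1.69 in haploid ESCs and 1.35 in NPCs. FOXP1 stood at 3.04, 12.1 and 4.62 FPKM, with a ratio of 1.69 in haploid ESCs and 0.48 in NPCs. FOXP2, known for its part in human speech and in basal ganglia and cerebellar circuits, was at 0.16, 2.45 and 2.39 FPKM. FOXP3, the factor of regulatory T cells, was at 1.19, 1.27 and 1.94 FPKM. FOXB1, which marks parts of the diencephalon, midbrain and spinal cord in the mouse, had a similar order, at 0.43, 3.38 and 2.13 FPKM. None of these ratios reached 4-fold on FPKM plus 1; with 0.1 in place of 1, FOXP2 and FOXB1 passed it in NPCs and in haploid ESCs against diploid ESCs. Of 10 genes that act with FOXP factors in motor neurons and cortex, 4 were read, and LHX1 was the one past 4-fold, lower in both comparisons, at 32.2, 5.78 and 0.09 FPKM; it is on the endoderm list too. CNTNAP2, a FOXP2 target, stood at 3.78, 7.49 and 13.6 FPKM, and BCL11B at 0.68, 3.2 and 0.94 FPKM. Over all 10 genes the median was -0.16 in NPCs and -0.02 in haploid ESCs.

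The TLE corepressors, through which several forkhead factors silence genes, were listed with the deacetylases HDAC1 and HDAC2, and 6 of the 7 genes were read. TLE1 was at 48.5 FPKM in the diploid stem cells, 41.5 in the haploid and 9.09 in NPCs, and was the list's one gene at least 4-fold lower in NPCs. TLE2 was at 10.6, 0.14 and 25.97 FPKM, at least 4-fold lower in haploid ESCs than in diploid ESCs. TLE5, a short member that lacks the repeats of the others, was at 179, 83.3 and 417 FPKM. The list had no gene at least 4-fold higher in either comparison and medians of -0.14 and -0.27.

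Of the 21 forkhead genes whose mean was below 1 FPKM, 17 stayed under 1 FPKM in every library, and the highest value among these was that of FOXO6 in diploid ESCs. They include factors known from other organs: FOXE1 of the thyroid, FOXE3 of the lens, FOXL2 of the ovary, FOXN1 of the thymus, FOXF1 and FOXL1 of gut and lung mesenchyme, and FOXC2, FOXD1, FOXD2, FOXF2, FOXI2, FOXI3, FOXR1, FOXR2 and FOXS1. FOXL2NB was likewise low, at 0.11 FPKM in the diploid stem cells, 0 in the haploid and 0.13 FPKM in NPCs. FOXA1, FOXB2, FOXC1 and FOXN4 reached 1 FPKM in a single library. FOXB2 did so in diploid ESCs, at 1.9 FPKM against 0.15 FPKM in haploid ESCs and 0 in NPCs. FOXN4, which guides retinal cells and spinal V2 interneurons, did so in NPCs, at 0.12, 0 and 1.04 FPKM. Listed at 0 were 2 forkhead genes in the diploid stem cells, 5 in the haploid and 12 in NPCs. By the depth estimate given above, the NPC library is also the shallowest. With all 23697 rows ranked by level, rows at 0 began at rank 21496 for the diploid stem cells, 20627 for the haploid and 21091 for NPCs. The whole table thus had more rows at 0 in haploid ESCs than in NPCs, unlike the forkhead genes. The part of depth in the forkhead counts was not tested.

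Genes of forebrain patterning were read as a list as well: of 14 telencephalon genes found, 3 had a mean of at least 1 FPKM, and all 3 were at least 4-fold lower in NPCs than in diploid ESCs, with none past 4-fold in haploid ESCs. Over all 14 genes found the medians were -0.10 and -0.14. The 3 genes were OTX2, at 112, 44.7 and 6.14 FPKM, HESX1, at 8.08, 2.79 and 0.12 FPKM, and EOMES, at 27.4 and 15.6 FPKM in the ESC libraries and listed at 0 in NPCs. LHX2 was at 0.56, 0.85 and 0.23 FPKM. EOMES is on the endoderm list as well.

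The remaining lists cover later partners. Of 11 neural crest genes that act around FOXD3, 7 were read, and in NPCs PAX3 and TFAP2B were at least 4-fold higher and ETS1, ERBB3 and TWIST1 at least 4-fold lower. PAX3 stood at 0.1 FPKM in the diploid stem cells, 0.18 in the haploid and 6.31 in NPCs, TFAP2B at 0, 0.01 and 4.05 FPKM, and ETS1 at 19.7, 8.36 and 0.7 FPKM. SOX10, which marks migrating crest, was at 0.38, 0.02 and 0.03 FPKM. In haploid ESCs none of the 7 was past 4-fold. Over all 11 genes the medians were -0.24 in NPCs and -0.20 in haploid ESCs. Of 13 mesoderm genes found that go with FOXC and FOXF, 6 were read. In NPCs 3 of these passed 4-fold downward and none upward, and in haploid ESCs 1 did and none upward. Over the 13 genes the medians were -0.89 and -0.25. The lower genes in NPCs included GATA4, given above, and TWIST1, at 8.03, 2.47 and 0.63 FPKM, while TBXT, the brachyury gene, was at 0.85 FPKM in the diploid stem cells, 0.03 in the haploid and 0 in NPCs.

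Markers of other cells that the cultures could hold also differed. The 8 ciliated cell markers, of which FOXJ1 is one, summed to 1.97 FPKM in the diploid stem cells, 1.36 in the haploid and 43.7 in NPCs, with 1, 0 and 5 of them at 1 FPKM or more, and the 8 neuron markers to 57.3, 44.1 and 317 FPKM. Fibroblast or feeder markers summed to 453, 584 and 153 FPKM, trophoblast or amnion markers to 31.9, 12.4 and 2.06 FPKM, mesoderm markers to 34.6, 19.5 and 15.3 FPKM, and glia markers to 20.8, 24.3 and 51.7 FPKM. Without FOXJ1 itself, the ciliated cell sum was 0.94, 0.81 and 12.6 FPKM over 7 genes. All 7 are also on the motile cilia list read above, so this sum is not a separate reading. The ciliated, neuron and glia sums were highest in NPCs, where FOXJ1 was highest, and their part in that result was not tested.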

How the data were processed

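Total RNA was Trizol-extracted and read on a BGISEQ-500 instrument, then mapped to the UCSC assembly Rhesus8 with at most 2 mismatches and counted by featureCounts, per the labels' protocols. The submitters' processing notes name STAR 2.4. FPKM values were deposited by the authors, and the sources used here do not say how they were made or whether strand was used, so reads of overlapping or antisense genes may be mixed. Matching columns to samples by description left 1 column of sample values unmatched and unused.

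Ratios were log2(FPKM + 1) differences for the 14474 genes that passed the filter, and depth was the commonest ratio among values from 0.15 to 0.6 FPKM. Members at 10 FPKM or more in a library, or past 4-fold, are named with all values, as are up to 4 genes with the largest ratios and a well-known one from each of 13 lists; other names were chosen after their values were seen. Members, these lists and 9 marker lists were chosen with earlier results of these data known. Names and gene order came from RefSeq's T2T-MMU8v2.0 table, another assembly, which holds 41 of 43 member IDs. Some items, including what was read from 1 of the 13 lists, are not reported here. The alternatives tried changed the pseudocount, filter, scaling, fold threshold and reference library. Python 3.11.15, numpy 2.4.6, pandas 2.3.3 and matplotlib 3.10.9 were used, and the calculation was tested on simulated data.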

Additional observations from a re-analysis of the deposited data

How the results depend on the processing

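FOXJ1 was higher in NPCs, and FOXD3 and FOXH1 lower, by at least 4-fold under each alternative run. In NPCs against diploid ESCs, the count of forkhead genes at least 4-fold higher, 1 as reported, became 3 with a pseudocount of 0.1 and 4 at 2-fold. The count at least 4-fold lower, 6 as reported, became 3 with haploid ESCs as the reference, where FOXA2 turned to 0.706; it was 7, with FOXK2 added, with a pseudocount of 0.1, after rescaling and at 2-fold, and 4 with the mean of 5 FPKM. The median of -0.391 became -0.098 without a filter, over 43 rows, -0.529 with TMM-style scaling, which moved the median of all genes to -0.122, and -0.519 with haploid ESCs as the reference. In haploid against diploid ESCs, the count at least 4-fold higher, 0 as reported, became 2 with a pseudocount of 0.1, 3 after rescaling to a sum of 1000000 and 5 at 2-fold. The count at least 4-fold lower, 3 as reported, became 1 when the mean had to reach 5 FPKM, where 12 forkhead genes were left. The median of 0.113 became -0.083 without a filter, -0.175 with the mean of 5 FPKM and 0.301 after rescaling, which moved the median of all genes to 0.211. Without a filter more genes are read, and with a mean of 5 FPKM fewer; for the remaining changes the cause was not tested. List medians over every gene found, given in the results, were added after seeing the data. No paired analysis was possible because each group has 1 library. Depth limits what can be read below about 1 FPKM, and its size in reads is unknown.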
